A study of Mus musculus with 30 samples.

Results

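The keratin family was taken as every gene whose symbol is Krt followed by a number and, in some, a letter. This rule found 54 genes among the 43346 mouse gene IDs of the count table. In the GRCm38 annotation used here (GENCODE M21), 27 of them lie on chromosome 11 between 99232761 and 100269871, and 27 on chromosome 15 between 101347444 and 102032027. All 54 had at least 1 count in the 30 libraries. Of these, 33 reached a group mean of 10 CPM (counts scaled to the library's total and given per 1000000 counts) or 50 CPM in 1 library, and are given with their values. The other 21 are given by range, together with any that passed a test.

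The 30 libraries held RNA of cells without green fluorescent protein (GFP), sorted from bone, lung or brain of female NSG mice, an immunodeficient strain without T, B and NK cells that still has neutrophils and macrophages. In 23 exposed libraries, mice 6 to 8 weeks old with subcutaneous estrogen pellets had been injected in the left ventricle of the heart with 100000 cells of a human breast circulating tumour cell (CTC) line grown from a patient's blood and labelled with GFP and luciferase. Each library came from 50000 sorted cells of a dissociated metastatic lesion. Exposed bone had 13 libraries (2 with the line Brx07, 4 with Brx50, 7 with Brx68). Exposed lung had 7 (2 with Brx07, 1 with Brx42, 3 with Brx50, 1 with Brx68) and exposed brain 3, all with Brx50. Tumour-free controls numbered 3 for bone, 2 for lung and 2 for brain. The sources do not say whether tumour-free mice had pellets too. The gate kept every GFP-negative cell of the dissected piece, so a library could hold any mouse cell type of that piece. An exposed library could also hold human cells without GFP. How human reads were separated is not stated, and the part of human RNA in the exposed keratin levels was not tested. The labels of exposed bone libraries 1 and 2 name a leg and a skull, and those of the other bone libraries name no site.

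Keratins are the intermediate filament proteins of epithelial cells. A filament is built from pairs of an acidic type I and a basic type II keratin, and the pair used marks the kind of epithelium. Krt8 and Krt18 are made in simple, single-layered epithelium, Krt5 and Krt14 in the basal layer of stratified epithelium, and Krt1 and Krt10 in the epidermal layers above it. Krt4 and Krt13 are made in the lining of mouth and oesophagus, and separate sets in the inner root sheath and the shaft of the hair. Blood, bone and nerve cells are not known for keratin filaments.

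The promoters of 7 members are shown because the inner root sheath members were high in the same few libraries. They are 120 bases before the RefSeq start on the gene's own strand, from the GRCm38.p6 table, with the letters TATAAA in capitals. The first 4 belong to inner root sheath keratins, the fifth to epidermal Krt10, and the last 2 to basal Krt5 and to Krt79, an abundant keratin of the lung libraries.
Krt25 (chr11:99322952-99323071, minus strand): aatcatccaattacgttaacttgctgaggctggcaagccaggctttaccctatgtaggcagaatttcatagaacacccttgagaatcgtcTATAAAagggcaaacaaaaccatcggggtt
Krt28 (chr11:99374904-99375023, minus strand): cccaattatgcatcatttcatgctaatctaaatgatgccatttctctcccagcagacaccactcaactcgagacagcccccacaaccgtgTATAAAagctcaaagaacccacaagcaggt
Krt71 (chr15:101743098-101743217, minus strand): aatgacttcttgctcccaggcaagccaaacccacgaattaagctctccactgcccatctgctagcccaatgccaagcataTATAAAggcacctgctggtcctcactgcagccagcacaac
Krt73 (chr15:101802361-101802480, minus strand): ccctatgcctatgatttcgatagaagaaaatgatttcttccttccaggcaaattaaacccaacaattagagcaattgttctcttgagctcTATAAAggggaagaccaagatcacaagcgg
Krt10 (chr11:99389365-99389484, minus strand): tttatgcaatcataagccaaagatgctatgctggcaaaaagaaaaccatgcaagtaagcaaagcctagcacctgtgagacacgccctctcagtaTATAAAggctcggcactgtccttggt
Krt5 (chr15:101712906-101713025, minus strand): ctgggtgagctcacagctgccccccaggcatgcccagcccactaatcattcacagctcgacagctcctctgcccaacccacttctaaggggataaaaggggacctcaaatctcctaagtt
Krt79 (chr15:101940325-101940444, minus strand): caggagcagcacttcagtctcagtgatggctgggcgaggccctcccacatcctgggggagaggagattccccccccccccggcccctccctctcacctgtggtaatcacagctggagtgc

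The search covered windows of 300 bases (250 before the RefSeq start and 50 from it) for TATAAA on either strand. The table held 37 windows of 36 members, and 19 windows (51.4%) held the letters, beside 13.6% of all 32851 windows. A match on the gene's strand with its first base 40 to 20 bases before the start was in 13 of the 37 windows (35.1%), beside 1.99% of all windows. All 7 inner root sheath windows held the letters, 5 of them at that distance. Among the windows shown, the first base lay 30 bases before the start in Krt25, Krt28 and Krt73, 40 in Krt71 and 26 in Krt10, and no match was found in Krt5 or Krt79. These counts describe letters in the sequence, and members that arose by duplication share sequence.

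Total counts per library ran from 4289012 to 15646947, and the number of genes with a count from 14769 to 25688. A keratin with no count in a library could have stood at up to 0.192 to 0.699 CPM there, which is the range over libraries of the limit that 0 counts allow, from counting error only. The summed marker genes of the labelled tissues were high where the labels put them. Alveolar epithelium genes stood at 1747 to 2564 CPM in control lung and at no more than 15.7 in control bone, and neutrophil genes, which mark bone marrow, at 28355 to 37278 CPM in control bone and no more than 740 in control lung. Exposed bone was mixed: neutrophil genes ran from 2.69 to 51868 CPM, and genes of nasal and salivary glands from 2.5 to 22429 CPM beside 36.3 to 2052 in control bone. Fewer cells of a type and less RNA per cell cannot be told apart in such libraries. Some members share 50-base windows of their longest transcript with transcripts of other genes, so their levels are uncertain. The share was 50.1% for Krt6b, 45.5% for Krt6a, 43.5% for Krt81, 43.3% for Krt86 and 37.6% for Krt16. It was 36.9% for Krt87, 33.1% for Krt34, 28.1% for Krt31, 26.9% for Krt8, 24.2% for Krt33b and 23.2% for Krt83. In all, 16 members shared over 5%.

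The 3 tissues of the tumour-free mice differed in how much keratin RNA they held and in which keratins made it up. The summed keratin level was 1689, 972 and 1160 CPM in the 3 bone controls, 545 and 440 CPM in the 2 lung controls, and 65.7 and 67.4 CPM in the 2 brain controls. Basal keratins made up 60.4%, 48.2% and 51.9% of the keratin CPM in the 3 bone controls, and mucosal keratins 18.4%, 31.9% and 29.9%. Marker genes of other tissues were present in the same 3 libraries: ameloblast and tooth genes summed to 2677, 306 and 205 CPM, beside no more than 0.837 in control lung, and nasal and salivary gland genes to 36.3, 1121 and 2052 CPM, beside 12.5 and 28.5. Their part in the bone keratin levels was not tested. In lung, simple epithelial keratins made up 40.6% and 41.0%, and Krt79 and Krt80 most of the rest.

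**Figure D1:**
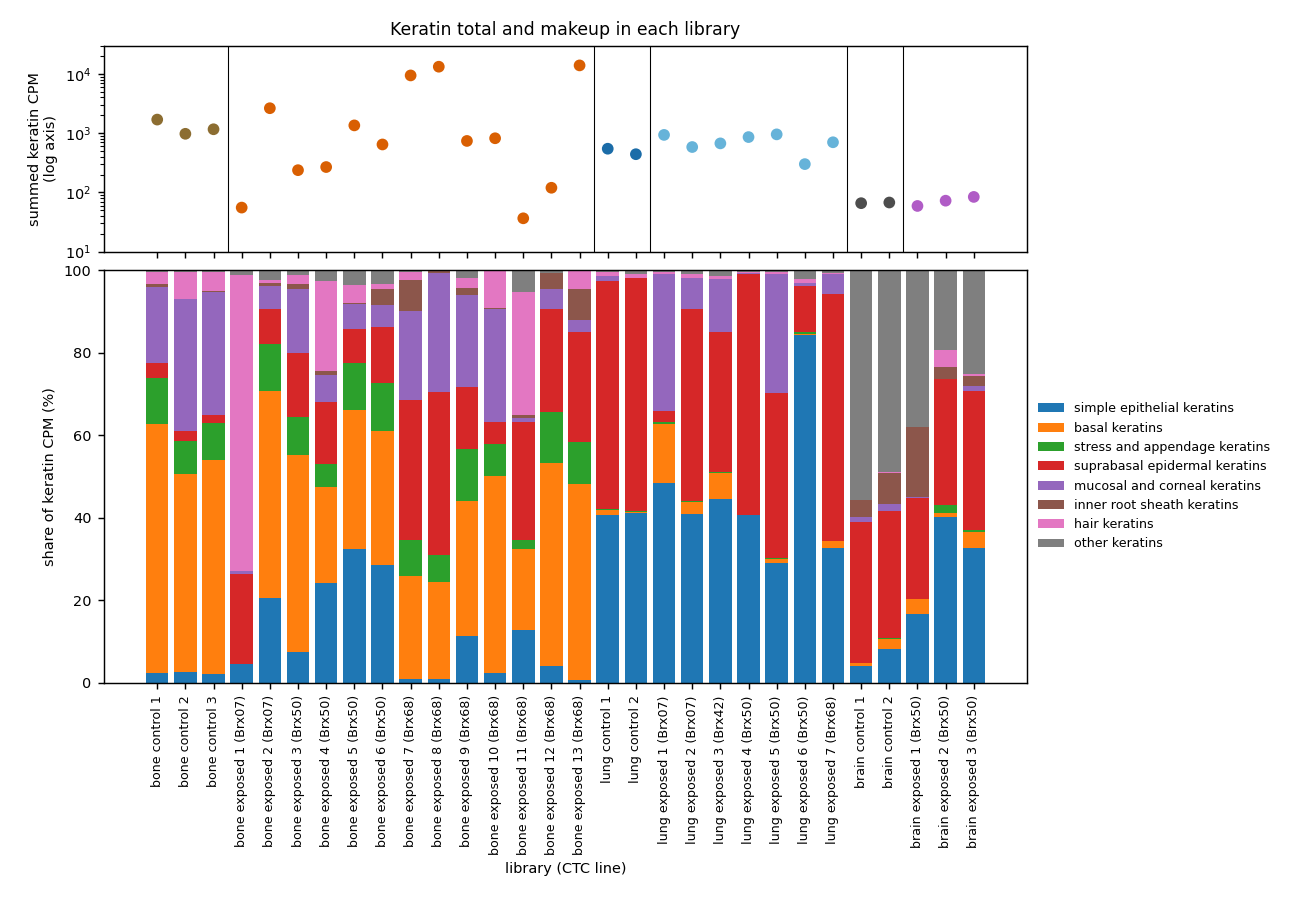
Summed keratin level in CPM on a log axis (top, 1 point per library) and the share of each keratin set in percent (bottom, stacked bars) for 30 libraries, with the CTC line in brackets. Control bone is mostly basal and mucosal keratin, control lung mostly simple epithelial keratin with Krt79 and Krt80 (in the suprabasal set), Krt222 (in the other set) leads in control brain, and the total in exposed bone runs from 36.5 to 13851 CPM.

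The basal pair was the most abundant in control bone. Krt5 stood at 485, 233 and 296 CPM in bone (338 ± 131, SD, n = 3), at 4.30 and 0.651 in lung and at 0.159 and 0 in brain. Krt14 stood at 494, 211 and 276 CPM in bone, at 0.717 and 0 in lung and at 0 in both brain controls. The bone controls lay above every lung and brain control in both genes. Krt5 was 7.03 ± 0.65 log2 units (fitted difference ± SE) higher in bone than in lung (adjusted p = 0.000127, edgeR quasi-likelihood test) and Krt14 9.73 ± 0.80 (adjusted p = 0.000184). Against brain, where it had no count, Krt14 was at least 1555-fold higher (3 counts over the group as the floor). Krt15, a further basal type I keratin, stood at 40.0, 24.3 and 29.7 CPM in bone beside 2.15 and 1.12 in lung and 0.319 and 1.6 in brain.

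The mucosal pair came next and varied less among the 3 bone controls than the basal pair. Krt13 stood at 178, 164 and 195 CPM in bone (179 ± 15.6, SD, n = 3), at 4.48 and 0.279 in lung and at 0 in brain. Krt4, its type II partner, stood at 128, 142 and 149 CPM in bone, at 3.05 and 0.279 in lung and at 0 in brain. The bone excess over lung was 6.17 ± 0.63 log2 units for Krt13 (adjusted p = 0.000580) and 6.33 ± 0.49 for Krt4 (adjusted p = 3.29e-05), both by edgeR. Against brain it was at least 822-fold for Krt13 and at least 637-fold for Krt4.

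Keratins of wounded and appendage epithelium followed. Krt17, a type I keratin of wounds and hair follicles, stood at 75.1, 25.3 and 35.2 CPM in bone and Krt6a, a type II keratin of the same places, at 87.5, 40.4 and 53.7, with no lung or brain control above 0.279 CPM in either. Krt6a had 2145 counts in bone and 1 in lung, a ratio of 1366 per total count with an exact 95% interval of 245 to 53964. Krt16 and Krt6b stood at 4.89 to 12 CPM in bone. Krt24, a low type I keratin, stood at 1.94 to 4.24 CPM in bone and had no count in lung, which makes it at least 24.0-fold higher.

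Krt83, a type II keratin of the hair shaft, was abundant in control bone. It stood at 28.6, 52.7 and 42.6 CPM, at 1.43 and 1.30 in lung and at 0 in brain. The bone libraries lay above all lung libraries, by 4.87 ± 0.35 log2 units (adjusted p = 1.18e-06, edgeR). Krt81 and Krt86, also hair shaft keratins, stood at 3.46 to 7.34 and 4.24 to 4.93 CPM in bone, and Krt81 had no count in lung. Krt76, a mucosal keratin of the palate, was called higher too, at 0.847 to 1.85 CPM beside 0. Most other hair keratins were near 0 in the same 3 libraries, with Krt31, Krt33a, Krt32 and Krt36 at no more than 0.539 CPM.

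Lung controls were led by other members. Krt19, a type I keratin of simple epithelium, stood at 141 and 79.1 CPM in lung, at 4.08, 3.58 and 1.94 in bone and at 0.159 and 0 in brain. Krt80, a type II keratin of differentiating epithelial cells, stood at 181 and 198 CPM in lung, at 25.3, 18.1 and 21.1 in bone and at 1.75 and 1.07 in brain. Krt79, a type II keratin known from the upper hair follicle and gland ducts, stood at 119 and 49.7 CPM in lung, at 4.23, 0.471 and 0 in bone and at 0 in brain. All 3 were lower in bone than in lung: Krt19 fell by 5.12 ± 0.31 log2 units (adjusted p = 5.55e-07), Krt80 by 3.17 ± 0.14 (adjusted p = 5.07e-09) and Krt79 by 5.66 ± 1.13 (adjusted p = 0.0252, edgeR). The Krt79 call was lost without bone control 2 (adjusted p = 0.0985), lung control 1 (0.130) or lung control 2 (0.0806).

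The simple epithelial pair was also higher in lung. Krt8 stood at 23.6 and 28.6 CPM in lung, at 6.70, 4.42 and 3.61 in bone and at 0.957 and 1.2 in brain, and Krt18 at 23.7 and 33.4, at 9.08, 7.25 and 11.9, and at 0.797 and 3.73. Krt7, a type II partner of Krt19 and Krt18 in ducts and lung, stood at 32.5 and 39.6 CPM in lung beside 17.9, 8.38 and 6.20 in bone and 0.478 and 0.267 in brain. The groups did not overlap in any of the 3 genes. Between tissues the share of all genes without overlap was not counted, for these or other members. Between control bone and lung 44.8% of all genes passed the threshold, so such separation alone says little. Krt8 was lower in bone than in lung by 2.42 ± 0.23 log2 units, Krt18 by 1.63 ± 0.30 and Krt7 by 1.75 ± 0.34 (adjusted p = 3.03e-06, 0.000989 and 0.00205, edgeR).

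Brain held 1 member above 10 CPM. Krt222, a keratin-like gene known from brain, stood at 36.5 and 32.8 CPM in the brain controls, at 1.15, 0.941 and 1.76 in bone and at 0.269 and 0.651 in lung. It was 4.60 ± 0.26 log2 units lower in bone than in brain (adjusted p = 5.47e-09) and 6.03 ± 0.35 lower in lung than in brain (adjusted p = 1.00e-08, edgeR). Low levels of epidermal members also stood higher in brain than in lung. Krt10 was at 7.18 and 6.13 CPM in brain beside 1.08 and 0.837 in lung, Krt77 at 5.10 and 6.40 beside 0 and 0.0930, and Krt9, the keratin of palm and sole skin, at 5.74 and 3.86 beside 0. All 3 were called by edgeR, with adjusted p of 0.0147, 2.25e-05 and 4.99e-05, and the Krt10 call was lost without brain control 1 (0.0687) or 2 (0.0539) or lung control 1 (0.0861) or 2 (0.113).

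Of the 30 members that passed the low count filter in the fit of the 7 controls, 17 were higher and 6 lower in bone than in lung, with a median difference of 3.61 log2 units beside 0.00 over all 18859 genes. Over all genes, 44.8% passed the threshold (22.5% higher and 22.3% lower in bone). Against brain, 20 were higher and 5 lower in bone (median 5.23, beside -0.04 over all genes), where 75.8% of all genes passed (37.0% higher, 38.9% lower). Between lung and brain, 11 were higher and 8 lower in lung (median 2.26, beside -0.06), where 72.0% of all genes passed (34.6% higher, 37.4% lower). The share of all genes that passed was so large that these counts alone say little about the family, and members high in 1 tissue passed the filter through it. When all 30 libraries in 6 groups shared 1 estimate of spread, the counts fell to 0 members between bone and lung, 11 between bone and brain and 5 between lung and brain.

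By set, bone was higher than lung in 3 of 3 basal, 4 of 4 mucosal and corneal, 4 of 4 stress and appendage and 3 of 4 hair members tested, and lower in 4 of 4 simple epithelial members. The remaining sets were mixed: of 7 suprabasal members tested 1 was higher and 2 lower, and 1 of 2 inner root sheath and 1 of 2 other members were higher. In CPM per kilobase of exon, the order in control bone was Krt14 (186 ± 84.3, SD, n = 3), Krt5 (154 ± 59.8), Krt13 (98.3 ± 8.6), Krt4 (65.4 ± 5.1), Krt17 (29.1 ± 17), Krt6a (25 ± 10) and Krt83 (22.4 ± 6.6). Krt14 was above Krt5 within each of the 3 libraries, with Krt5 to Krt14 ratios of 0.786, 0.883 and 0.857, while their ranges over libraries overlapped, as did those of Krt17, Krt6a and Krt83. In control lung the order was Krt19 (59.4 ± 23.8, SD, n = 2), Krt80 (29.6 ± 1.9), Krt18 (19.9 ± 4.7), Krt79 (17.7 ± 10.3), Krt8 (13.3 ± 1.8) and Krt7 (5.1 ± 0.7). The range of Krt79 enclosed both values of Krt18 and of Krt8, and Krt80 lay above them. Both orders divide by merged exon length, which exceeds the longest transcript in some members. It was 4753 bases beside 2451 for Krt79, 6393 beside 3919 for Krt80 and 7049 beside 4094 for Krt7, but 1437 in both for Krt18. The place of such members in the order therefore depends on the length used.

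**Figure D2:**
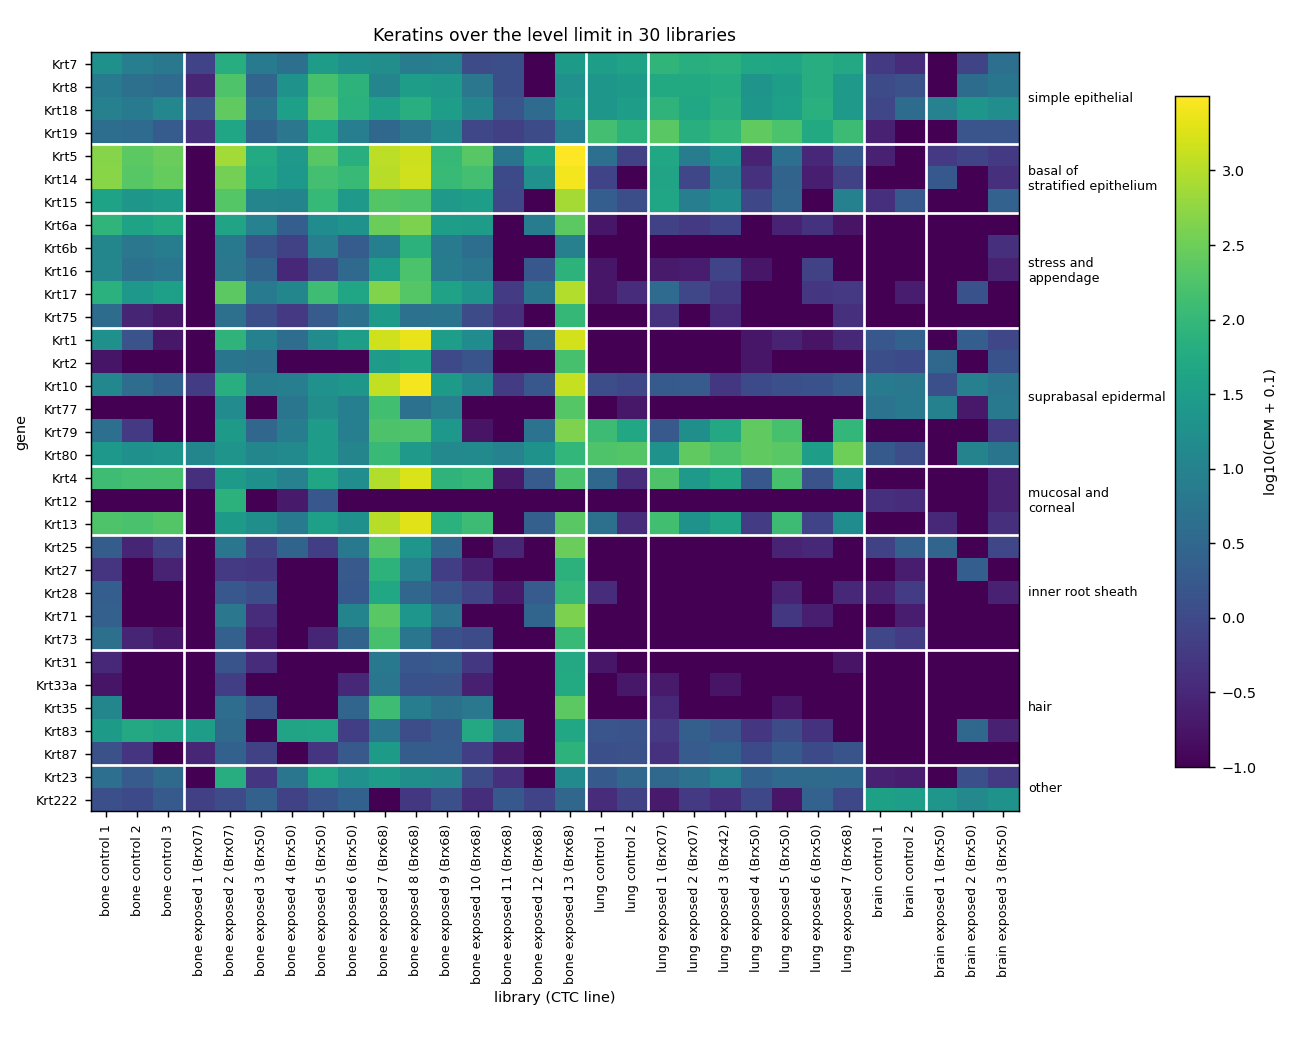
Levels of the 33 keratins over the level limit (rows, by set) in 30 libraries (columns, by group, with the CTC line), as log10(CPM + 0.1), where the darkest cells are libraries with no or almost no counts. Basal, stress and mucosal sets are bright in control bone and most exposed bone columns but dark in exposed bone 1 and 11, simple epithelial keratins are bright in lung, and exposed bone 7, 8 and 13 are the brightest.

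Other genes of epithelial cells and of intermediate filaments were counted in 5 lists. Between control bone and control lung, 8 of 10 desmosome genes tested (cell junctions to which keratins attach) were higher and 2 lower, as were 7 and 1 of 9 cornified envelope genes, 6 and 0 of 10 basal squamous cell genes, 4 and 4 of 13 simple epithelium genes, and 4 and 3 of 13 other intermediate filament genes. The desmosome plaque gene Pkp1 was 6.76 ± 0.34 log2 units higher in bone (adjusted p = 2.53e-08), Itgb4, the integrin that anchors basal cells at hemidesmosomes, 2.68 ± 0.21 (adjusted p = 9.13e-07), and Cldn3, a tight junction gene of simple epithelium, fell by 3.77 ± 0.29 in bone (adjusted p = 4.84e-07, edgeR). Over all genes 44.8% passed in this comparison, and only 93 genes passed when 30 libraries in 6 groups shared the spread. Between lung and brain, where 72.0% of all genes passed, 13 of 13 simple epithelium genes were higher in lung. Against brain, bone was higher in 9 of 10 desmosome, 9 of 10 basal squamous cell, 8 of 9 cornified envelope and 12 of 13 simple epithelium genes tested, where 75.8% of all genes passed.

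Exposed bone spread far more widely in keratin RNA than control bone, and no member passed the threshold. The summed keratin level in the 13 exposed bone libraries ran from 36.5 to 13851 CPM with a median of 737, below and above the 3 controls. No member of the 41 tested passed an adjusted p of 0.05 by edgeR, where 0% of all 18278 genes tested did. At an unadjusted p under 0.05 stood 2 members, Krt77 and Krt2, and 458 of all genes. The fitted difference was positive in 37 of the 41 members, with a median of 2.28 log2 units beside 0.08 over all genes. Members high in a few exposed libraries alone passed the low count filter through them, among them Krt77, with no count in any bone control. The number of positive fits and the median therefore say little about the family. Limma-voom with quality weights called 3 members (Krt77 higher, Krt83 and Krt86 lower) among 2866 genes, and DESeq2 none among 17 genes. Of the 41 members tested, 0 lay above and 0 below every control in all 13 exposed libraries, where 0.0328% and 0.202% of all genes did.

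Basal keratins spanned the whole range. Krt5 ran from 0 to 3147 CPM in exposed bone with a median of 101, and Krt14 from 0 to 2664 with a median of 114. For Krt5, 9 of the 13 exposed libraries lay below the lowest control (233 CPM) and 4 above the highest (485 CPM). The fitted exposed-minus-control difference of the 3 basal members had a median of 0.64 log2 units. Krt15 ran from 0 to 793 CPM with a median of 27.1, so the exposed values enclosed those of the controls in all 3 genes. Among stress and appendage members, Krt17 ran from 0 to 961 CPM (median 39.2), Krt6a from 0 to 413 (median 20.4), Krt16 from 0 to 169 (median 3.31), Krt6b from 0 to 77.5 (median 4.08) and Krt75, a hair follicle companion layer keratin, from 0 to 99.6 (median 1.84). The mucosal Krt13 and Krt4 had medians of 28.6 and 28.2 CPM, below all 3 controls, and the suprabasal Krt1, Krt10 and Krt79 of 15.01, 18.4 and 8.68 CPM.

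The highest keratin levels of the series came from 3 Brx68 libraries. Exposed bone 7, 8 and 13 held 9381, 13165 and 13851 CPM of keratins. The epidermal pair stood out there. Krt1 stood at 1519, 2271 and 1539 CPM there, at 84.7 CPM or less in the other 10 exposed bone libraries and at 18.2, 1.32 and 0.0926 in the controls. Krt10 stood at 1212, 2640 and 1290 CPM there, at 67.4 or less in the other 10 and at 12.5, 3.95 and 2.41 in the controls.

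The 3 libraries were not alike in their other keratins. The mucosal pair was high in exposed bone 7 and 8, with Krt13 at 1025 and 1994 CPM and Krt4 at 967 and 1757, while exposed bone 13 stood near the controls with Krt13 at 221 and Krt4 at 164. Basal Krt5 was highest in exposed bone 13 (3147 CPM, beside 1104 and 1421), as was Krt17 (961 CPM, beside 445 and 201). Krt16, which rises in wounds, was highest in exposed bone 8, at 169 CPM beside 31.9 in 7 and 79.9 in 13. Krt2, a keratin of the upper epidermis, stood at 29.8, 40.3 and 153 CPM in 7, 8 and 13 and at no more than 5.57 elsewhere in bone. Krt77, found around sweat ducts, stood at 135 and 203 CPM in 7 and 13 but at 4.93 in 8, with no count in any bone control. Summed over the exposed group it was at least 354-fold higher per total count. Exposed bone 7 and 13 held 1036 and 2415 of its 4090 counts there, and exposed bone 1, 3, 10, 11 and 12 held none. The bound therefore describes these few libraries more than the group.

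Inner root sheath keratins were confined mostly to 2 libraries. The set summed to 712 CPM in exposed bone 7 and 1025 CPM in exposed bone 13, to 64.9 in exposed bone 8 and to no more than 24.2 in the other 10, with 11.2, 0.376 and 0.926 in the controls. Krt71, the main type II member, stood at 227 and 407 CPM in 7 and 13, at 23.1 in 8 and at no more than 10.4 elsewhere in bone. Krt25, its type I partner, stood at 194 and 294 CPM, then 22.8 and no more than 6.40. Krt73, Krt27 and Krt28 followed, with 157 and 112, 82.3 and 77.3, and 49.6 and 100.4 CPM in 7 and 13. Krt25, Krt28, Krt71 and Krt73 are the set members whose promoters are printed.

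Hair shaft keratins were high in the same 2 libraries. Krt35, an early type I hair keratin, stood at 126 and 228 CPM in exposed bone 7 and 13 and at no more than 7.57 in the other 11, beside 11.3, 0 and 0 in the controls. Krt31, Krt33a and Krt87 reached 51.8, 55.6 and 79.9 CPM in exposed bone 13 and 6.51, 5.73 and 27.6 in 7, and stayed at no more than 2.35 CPM in every other bone library. Of the 21 members under the level limit, 15 had their highest level in exposed bone 13. They ran from 1.18 CPM (Krt39) to 24.3 CPM (Krt86) there.

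**Figure D3:**
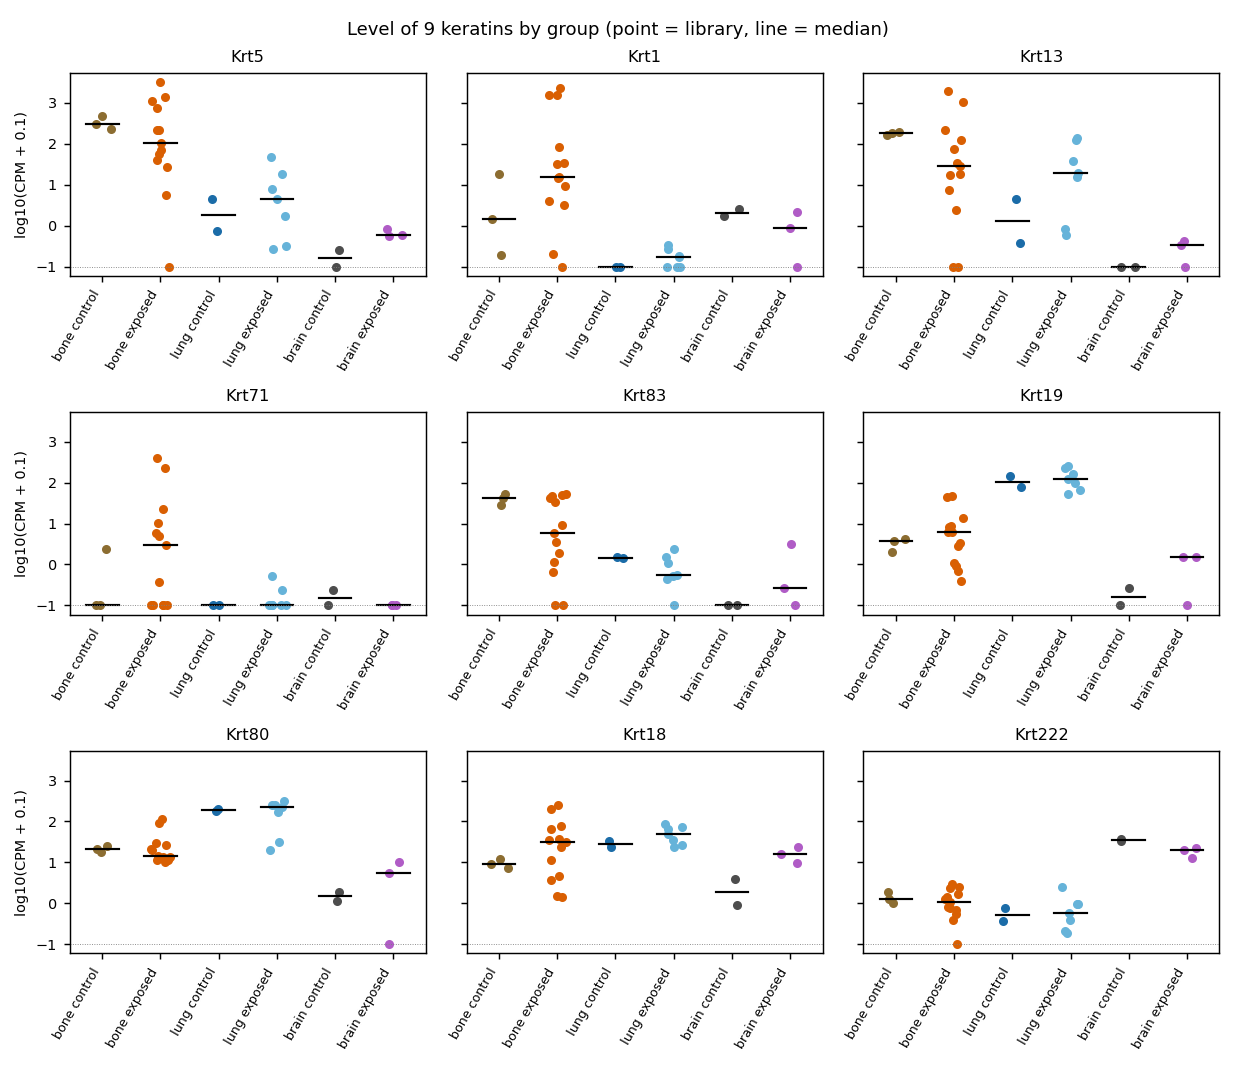
Level of 9 keratins as log10(CPM + 0.1) in the 6 groups, with 1 point per library and a line at the median. Exposed bone encloses control bone for Krt5, Krt13 and Krt80, both lung controls lie above the bone controls for Krt19 and Krt80, and Krt18 in brain lies higher in the 3 exposed than in the 2 control libraries.

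Marker genes of hair follicles were highest in exposed bone 7 and 13 too. Their sum (Tchh, Padi3, Lhx2, Msx2, Hoxc13, Krtap3-1) was 624 CPM in exposed bone 7 and 812 in 13, 94.2 in 8 and 2.10 to 103 in the other 10, beside 10.6 to 21.2 in the bone controls. Elsewhere the orders differed. Exposed bone 2, 5 and 8 held 103, 75.7 and 94.2 CPM of these genes with 16.9, 1.75 and 64.9 CPM of inner root sheath keratins. Brain controls held 45.0 and 40.8 CPM of these genes, so the list was not particular to follicles. Tchh, the hardening protein of the inner root sheath, stood at 504 and 675 CPM in 7 and 13. All 6 markers had a count in exposed bone 13, and Krtap3-1 had none in the controls. Cornified envelope genes summed to 1901, 2031 and 1626 CPM in 7, 8 and 13 beside 28.2 to 260 in the other 10, and desmosome genes to 5307, 3194 and 6470 beside 75.3 to 1387. In exposed bone as a whole none of the 10 basal squamous cell, 15 cornified envelope, 11 desmosome, 14 simple epithelium and 13 other intermediate filament genes tested passed the threshold. The part of hair follicle cells in these levels was not tested.

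Exposed bone 2, from a Brx07 skull, and exposed bone 5, with Brx50, differed in another way. Krt18 stood at 249 and 203 CPM and Krt8 at 184 and 155 in these 2 libraries, beside 1.30 to 75.5 and 0 to 81.0 in the other 11. Krt23 and Krt7, also keratins of simple and ductal epithelium, were highest in bone in the same 2 libraries (62.8 and 44.4 CPM, and 62.3 and 30.2). Krt12, the keratin of the corneal surface, stood at 77.9 CPM in exposed bone 2 and at no more than 1.55 in any other library of the 30. Of its 1852 exon bases, 1007 overlap the gene A830036E02Rik on the other strand. The strand setting of the counts is not stated, so the Krt12 level is uncertain. Marker sums stood at 19481 and 14545 CPM for nasal and salivary glands, 222 and 1211 for photoreceptors, 2475 and 739 for olfactory epithelium, and 345 and 81.8 for cornea and lens in libraries 2 and 5. The controls held 36.3 to 2052, 5.84 to 6.54, 31.8 to 36.2 and 42.0 to 45.6 CPM of the same lists. Exposed bone 6 had the highest gland sum, 22429 CPM, with Krt18 at 75.5 and Krt8 at 81 CPM. Exposed bone 4 held 413 CPM of photoreceptor and 614 of olfactory genes, with Krt18 at 34.9 and Krt8 at 19.1 CPM. Cornea and lens genes summed to 155, 220, 167 and 189 CPM in exposed bone 3, 7, 8 and 13, above library 5. These marker sums were therefore not particular to libraries 2 and 5. The part of these marker genes' cells in the keratin levels was not tested.

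Exposed bone 1, the leg of the Brx07 label, held almost no keratin of stratified epithelium. Krt5, Krt14, Krt15, Krt17, Krt6a, Krt1 and Krt13 had no count in it, Krt4 stood at 0.300 CPM and the sum of all members at 55.4 CPM. The other low libraries were exposed bone 11 (36.5 CPM in sum) and 12 (120 CPM). In exposed bone 1 the leading member was Krt83 at 33.2 CPM, followed by Krt80 at 11.6.

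Krt83, Krt81 and Krt86 were also high in exposed bone 1, 4, 5 and 10, where the other hair keratins stood at no more than 6.19 CPM. Krt83 stood at 33.2, 42.3, 46.3, 51.8 and 48.8 CPM in exposed bone 1, 4, 5, 10 and 13, at 8.98 in 11 and at no more than 5.73 in the other 7. Neutrophil genes summed to 42464, 51868, 24331, 35621 and 18386 CPM in exposed bone 1, 4, 5, 10 and 11, and to no more than 2274 in the remaining 8, which include 13 with 446. Libraries high in Krt83 were therefore high in neutrophil genes, apart from exposed bone 13, where the other hair keratins were high as well. Krt81 took a like order, at 3.10, 11.6, 10.5 and 10.3 CPM in 1, 4, 5 and 10, 22.7 in 13 and no more than 0.605 in the rest. Krt86 stood at 3.20, 3.72, 2.91 and 3.43 CPM in the same 4 libraries, 24.3 in 13 and no more than 1.17 in the rest. Krt81, Krt86 and Krt83 share sequence with each other, so the split of counts among them is uncertain, and so is their like order. The part of marrow cells in these levels was not tested.

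**Figure D4:**
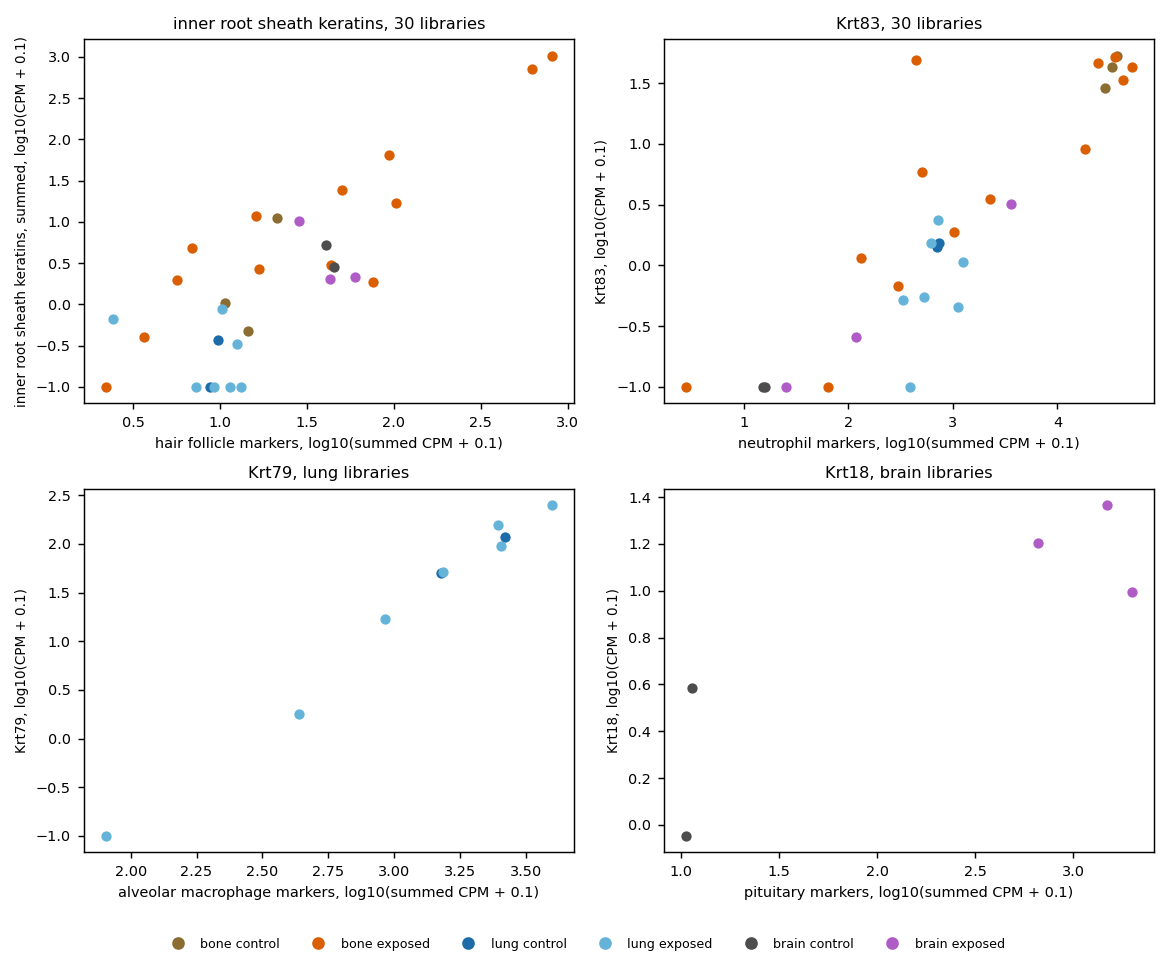
Keratin levels (vertical) against summed marker genes (horizontal), both as log10(CPM + 0.1), with 1 point per library coloured by group. The summed inner root sheath keratins are high in the 2 exposed bone libraries with the highest hair follicle sums, Krt83 is high in bone libraries with neutrophil sums of 24331 CPM or more and in 1 without, Krt79 is ordered with alveolar macrophage genes in lung, and Krt18 is higher in the 3 brain libraries with the higher pituitary sums.

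No keratin passed the threshold in exposed against control lung, and Krt7 was the member tested that lay above both controls in every exposed library. Krt7 stood at 32.5 and 39.6 CPM in the controls and ran from 44.1 to 87.1 with a median of 64.3 in the 7 exposed libraries, all above both controls. Its fitted difference was 0.86 ± 0.32 log2 units, with an unadjusted p of 0.0253 and an adjusted p of 1.000 by edgeR. Of the 17 members tested, 1 (Krt7) was higher in every exposed than in every control library, where 1.02% of all genes were, and 1 (Krt86) was lower in every exposed library, where 2.01% of all genes were. No member passed the threshold, where 0% of all 17132 genes did. At an unadjusted p under 0.05 were 2 members, Krt7 and Krt4, beside 118 genes, and DESeq2 and limma-voom called 3 and 1 genes, with no keratin among them.

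The other lung keratins overlapped between the groups. Krt19 ran from 53.9 to 255 CPM (median 123) in exposed lung, Krt8 from 21.4 to 62.4 (median 53.8) and Krt18 from 23.6 to 85.5 (median 49.2), around the control values given above. The 4 simple epithelial members tested all had positive fitted differences with a median of 0.86 log2 units, beside 0.08 over all genes. In sum the set ran from 228 to 450 CPM in exposed lung, and both controls, at 221 and 181 CPM, lay below that range. Krt80 was split: 174 to 321 CPM in 5 exposed libraries and 20.3 and 32.3 CPM in exposed lung 1 and 6.

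Mucosal keratins appeared in part of the exposed lung libraries. Krt4 stood at 172, 25.5, 48.6, 1.59, 152, 1.34 and 18.5 CPM in exposed lung 1 to 7, beside 3.05 and 0.279 in the controls, and Krt13 at 137, 19.2, 38.6, 0.503, 123, 0.706 and 15.4 beside 4.48 and 0.279. Exposed lung 1 and 5 were the highest and 4 and 6 within the range of the controls. The Krt4 difference was 5.22 ± 2.25 log2 units with an unadjusted p of 0.0447 and an adjusted p of 1.000. Krt5, Krt14 and Krt15 were highest in exposed lung 1, at 48.1, 43.1 and 43.4 CPM, where the next library reached 18.1, 8.57 and 15.

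Other markers moved with these keratins in part. Thyroid genes summed to 3796, 707, 1742 and 2258 CPM in exposed lung 1, 2, 3 and 7 and to no more than 32.9 in 4, 5 and 6, beside 10.04 and 10.6 in the controls. Mesothelium genes reached 3387 CPM and cornified envelope genes 581 CPM in exposed lung 1. Exposed lung 5 held 152 CPM of Krt4 with 8.1 CPM of thyroid genes. Their part in these levels was not tested. In lung none of the 10 basal squamous cell, 11 cornified envelope, 11 desmosome, 14 simple epithelium and 9 other intermediate filament genes tested passed the threshold.

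Krt79 also varied widely in lung. It stood at 1.69, 17.0, 51.9, 250, 155, 0 and 94.7 CPM in exposed lung 1 to 7, around the 119 and 49.7 of the controls. Genes of alveolar macrophages, a list added after the values had been seen, summed to 434, 927, 1538, 3975, 2488, 80.4 and 2538 CPM in the same order, and to 2649 and 1510 in the controls. The 9 lung libraries stood in the same order by both measures, apart from exposed lung 5, which came after exposed lung 4 in Krt79 and after exposed lung 4 and 7 and control 1 in these genes. In control bone the same list summed to 2202 to 2734 CPM, most of it Chil3 (1902 to 2405 CPM), with Krt79 at 4.23, 0.471 and 0 CPM, so the list was not particular to lung and Krt79 did not follow it there. The part of macrophages in the Krt79 level was not tested. All 7 genes of that list had a count in each lung library. Alveolar epithelium genes did not follow the same order, with their highest sum (5355 CPM) in exposed lung 3, where Krt79 was at 51.9 CPM.

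Of the keratins tested in brain, 1 stood higher in all exposed libraries. Krt18 was at 0.797 and 3.73 CPM in the controls and at 9.79, 23.1 and 15.8 in the 3 exposed libraries, which did not overlap. The difference was 2.76 ± 0.75 log2 units with an adjusted p of 0.275 by edgeR, 0.0160 by DESeq2 and 0.0253 by limma-voom with quality weights, so the call depended on the test. Krt222 was lower in all 3 exposed libraries, at 22.4, 12.8 and 20.1 CPM beside 36.5 and 32.8, and fell by 0.96 ± 0.34 log2 units (adjusted p = 0.323, edgeR). Each was 1 of the 10 members tested that lay on 1 side of all controls, where 19.9% of all genes were higher and 18.6% lower in every exposed library. No member passed the threshold by edgeR, where 0.00598% of all 16734 genes, a single gene, did. At an unadjusted p under 0.05 stood these 2 members and 2272 genes.

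Pituitary genes were also higher in the 3 exposed brain libraries than in the controls. They summed to 1996, 1486 and 664 CPM in exposed brain 1 to 3 and to 10.5 and 11.3 in the controls, with Gh at 950, 902 and 281 CPM beside 0.797 and 1.2. Among the 3 exposed libraries the orders differed: exposed brain 1 had the highest pituitary sum and the lowest Krt18. The 1 gene called in brain was on that list, which is the only list of the 23 with a gene past the threshold in any comparison of exposed with control libraries. Lhb had no count in any brain library. Krt8, the partner of Krt18, stood at 0, 3.82 and 5.54 CPM beside 0.957 and 1.2. The part of pituitary tissue in the Krt18 level was not tested.

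Of the 30 members tested between exposed bone and exposed lung, 17 were higher and 3 lower in bone, where 17.1% of all 16602 genes passed (8.49% higher, 8.64% lower). The median difference was 5.62 log2 units beside -0.02 over all genes. Members high in bone alone passed the low count filter through bone, so the median and the counts by set say little about the family. Higher in bone were 5 of 5 stress and appendage members, 4 of 4 inner root sheath, 3 of 5 suprabasal, 2 of 3 basal, 2 of 4 hair and 1 of 3 mucosal members tested. Krt19, Krt7 and Krt80 were lower. Of the other epithelial genes tested, 6 of 11 desmosome, 3 of 10 basal squamous cell, 1 of 11 cornified envelope and 1 of 14 simple epithelium genes were higher in bone and none lower, and 2 of 11 other intermediate filament genes were higher and 1 lower.

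The members with the smallest p were Krt19, Krt80 and Krt1. Krt19 ran from 0.300 to 46.8 CPM in exposed bone and from 53.9 to 255 in exposed lung, without overlap, and fell by 3.87 ± 0.72 log2 units in bone (adjusted p = 0.00125). Krt80 fell by 2.71 ± 0.53 (adjusted p = 0.00179), with overlapping ranges of 9.89 to 113 and 20.3 to 321 CPM. Krt1 ran from 0 to 2271 CPM in exposed bone and from 0 to 0.228 in exposed lung and was 12.10 ± 2.5 log2 units higher (adjusted p = 0.00270, edgeR). Krt24, Krt6b, Krt73 and Krt77 had no count in exposed lung, so their summed level per total was at least 258, 289, 554 and 843 times higher in bone. The most counts came from exposed bone 8 for Krt24 and Krt6b, and from exposed bone 7 and 13 for Krt73 and Krt77. Krt14 was 5.78 ± 1.71 log2 units higher (adjusted p = 0.0238), and its adjusted p was 0.0506 without exposed lung 5.

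Without exposed bone 7 and 12, the libraries with the fewest genes detected, 15 of 26 members tested passed. With the 6 libraries that share a line and a label code between bone and lung, fitted with that code as a block, 0 of 23 members and 0 genes passed, with 15 members at an unadjusted p under 0.05. In the 30-library fit, no keratin passed for a difference between bone and lung in its exposed-minus-control change (46 tested, 0 called, 0 at an unadjusted p under 0.05, where 0% of all 21233 genes passed and 237 stood under 0.05). In the same comparison DESeq2 called 10 and limma-voom 319 genes, with no keratin among them.

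Among bone libraries, the summed keratin level was 9381, 13165, 737, 818, 36.5, 120 and 13851 CPM in the 7 with Brx68 (exposed bone 7 to 13) and 237, 267, 1348 and 643 CPM in the 4 with Brx50, so the ranges overlapped. Of the 38 members tested, 0 passed, where 0% of all 16628 genes did, and 15 stood at an unadjusted p under 0.05, all higher with Brx68, beside 657 genes. Without exposed bone 7, 8 or 13, 33, 32 and 31 members were tested and 7, 9 and 7 stood under that p. Over all libraries left out in turn, that number ran from 4 to 23. Members high in a few Brx68 libraries passed the low count filter through them, so these counts say little about the family. The smallest p was that of Krt24, at 1.98 to 49.4 CPM in 5 of the 7 Brx68 libraries and 0.202 and 1.70 in the other 2, beside 0.113 to 1.37 in the 4 Brx50 libraries. It was 4.75 ± 1.46 log2 units higher (adjusted p = 0.983 by edgeR, 0.0239 by DESeq2, which called 31 genes). Simple epithelial members went the other way without passing, with 0 of 4 fitted higher in Brx68 and a median of -1.51 log2 units. In lung, no member passed between Brx50 and Brx07 (16 tested, 0% of all 16489 genes past the threshold). Krt15 and Krt5 stood at an unadjusted p under 0.05, beside 1181 genes, lower with Brx50 by fits of -4.51 ± 1.52 and -4.26 ± 1.57 log2 units. DESeq2 called 347 genes and no keratin there.

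Partner keratins were compared as a ratio within each library. Over libraries with at least 30 counts of both genes, the type II to type I ratio per kilobase of exon was 0.894 (median, range 0.497 to 1.69, 17 libraries) for Krt5 to Krt14, while Krt5 itself ran from 1.94 to 1433 CPM per kilobase there. For Krt4 to Krt13 it was 0.842 (0.581 to 1.14, 19 libraries), for Krt71 to Krt25 1.16 (0.924 to 1.48, 6 libraries) and for Krt1 to Krt10 0.577 (0.226 to 0.696, 11 libraries). Krt8 to Krt18 was 0.560 (0.121 to 0.813, 23 libraries). Its median was 0.495 in 12 bone and 0.686 in 9 lung libraries. Krt6a to Krt16 was wider, at 4.67 (1.58 to 6.28, 9 libraries), and Krt2, which also pairs with Krt10, stood at 0.0669 of it (0.0124 to 0.488, 5 libraries). These ratios depend on the exon lengths of the annotation, and both genes of a pair come from the same library.

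**Figure D5:**
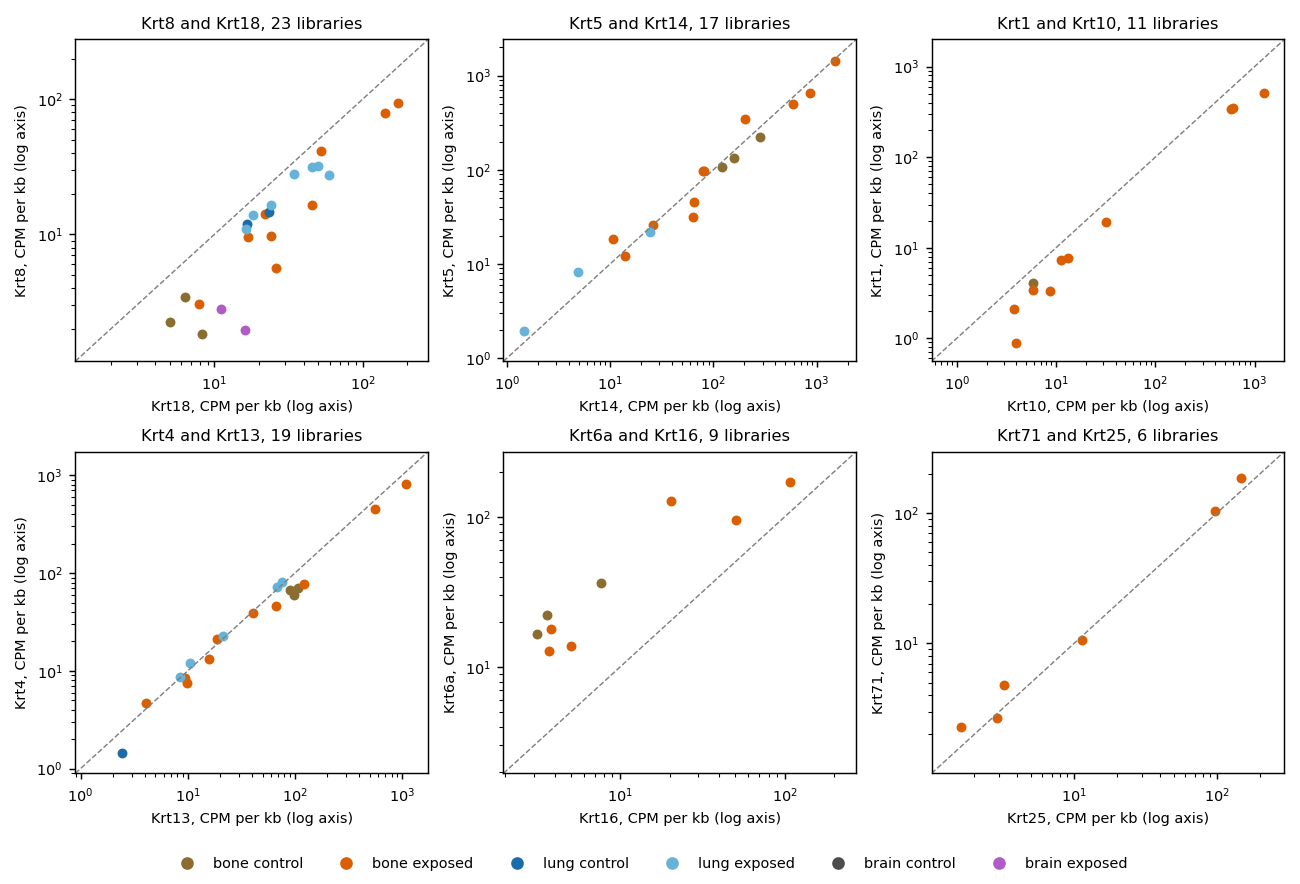
Type II keratin (vertical) against its type I partner (horizontal) in CPM per kilobase of exon, both on log axes, for 6 pairs, with 1 point per library that had at least 30 counts of each and a dashed line at equal levels. Points of Krt5 with Krt14, Krt4 with Krt13 and Krt71 with Krt25 run close to the dashed line, those of Krt8 with Krt18 and Krt1 with Krt10 below it, and those of Krt6a with Krt16 above it.

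Members not yet described stayed low. Krt20, a keratin of intestine and bladder, reached 0.676 CPM at most, and Krt88, Krt74, Krt39 and Krt42 0.264 to 1.68 CPM. Krt76, a keratin of the palate, reached 8.6 CPM in exposed bone 2, Krt78 14.5 in exposed bone 7 and Krt9 7.92 in exposed brain 3. Krt90, Krt40 and Krt34 reached 4.55, 5.39 and 7.83 CPM, and Krt33b, Krt26, Krt82, Krt72, Krt32, Krt36 and Krt84 12.5 to 21.2 CPM, all in exposed bone 13.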

How the data were processed

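The authors deposited whole-number counts of reads per Ensembl gene for 30 libraries, and no normalization was applied to them before deposit as far as the values show. STAR 2.5.2b and HTSeq are named in the submitters' processing notes, with the mouse builds mm10 and GRCm38.p5 and the human builds hg19 and GRCh37, without their roles. The annotation, the strand setting and the way human reads were separated are not stated, so antisense and overlapping genes cannot be told apart. Symbols came from GENCODE M21 for 42462 of 43346 IDs, and IDs without one held 0.132% of counts.

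Counts were scaled by library totals (CPM) for levels and by TMM for tests. Tests were two-sided edgeR 4.0.16 quasi-likelihood tests in R 4.3.3 over all genes past edgeR's low count filter, with Benjamini-Hochberg adjustment and a threshold of 0.05. SE is the size of the log2 difference over the root of F. Each comparison was fitted on its own groups, the controls together, and the difference of effects on 30 libraries in 6 groups. Alternatives were RLE and upper quartile scaling, no filter, DESeq2 1.42.0, limma 3.58.1 voom with quality weights, Brx50 libraries only, blocks, leaving out each library and, added after the data were seen, leaving out exposed bone 7 and 12. The fits were tested on simulated data.

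The members and lists were chosen with earlier results of these data known. Members were described with all values where a group mean reached 10 CPM, 1 library 50 CPM, or a test passed; up to 2 genes per list were named. Lists were 8 keratin sets, 5 pathway lists and 18 marker lists, of which 1 was added after the data were seen. Marker lists not described beside a result had these summed levels over the 30 libraries: airway secretory and ciliated 81.2 to 869 CPM, ameloblast and tooth 0 to 2677, choroid plexus and ependyma 4.73 to 1827, fibroblast 111 to 52272, osteoblast 2.75 to 747, skeletal muscle 2.93 to 1962 and thymic epithelium 0 to 29.4. No label states 1 mouse per library, and exposed bone 1 and 2 share a label code, so p-values measure the spread between libraries, which may be technical. Intervals and limits of 0 counts cover counting error only, since reads carried no molecular identifiers as far as the labels say.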

Additional observations from a re-analysis of the deposited data

Results flagged for a closer look

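Exposed lung 1, with Brx07, stood far above the other 6 exposed lung libraries in the 3 basal keratins. Krt5 was at 48.1 CPM with the next library at 18.1, Krt14 at 43.1 with the next at 8.57, and Krt15 at 43.4 with the next at 15 CPM. The gap to the nearest library was 0.627 of the group's whole range for Krt5, 0.804 for Krt14 and 0.654 for Krt15, above Dixon's 95% critical value for 7 libraries. Of 11 such groups of values examined, 3 stood out. All 11 were of exposed lung, since exposed bone had too many libraries for the critical values used and the other groups too few. Only genes that reached 10 CPM were examined, and Krt14 did so through exposed lung 1 alone. Chance alone marks about 1 in 20 where values are normally distributed, which was not tested here. The 3 genes came from 1 library and are not independent.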

How the results depend on the processing

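Direction was followed only for members called in a comparison or, where none was called, at an unadjusted p under 0.05. None of these reversed under any alternative run, and the direction of the other members was not checked. For exposed against control bone, limma-voom with quality weights called 3 keratins where edgeR called 0. In brain, DESeq2 called 1 and limma-voom 1 (Krt18) where edgeR called 0, and DESeq2 called 1 (Krt24) between Brx68 and Brx50 in bone. Fitting 30 libraries in 6 groups gave 0 keratins between control bone and lung, 11 between bone and brain and 5 between lung and brain (23, 25 and 19 in the fit of the controls), beside 93, 6187 and 5165 genes. The cause was not tested. Leaving out 1 library gave 19 to 23 keratins between control bone and lung, 23 to 26 between bone and brain, 14 to 19 between lung and brain and 17 to 21 between exposed bone and lung, and 0 to 0 in the other comparisons. Over all genes, brain calls ran from 0 to 69 and bone calls reached 2 without exposed bone 8.

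Gene counts moved by over 1.5 times for bone (DESeq2 17, limma-voom 2866), lung (3 and 1), brain (712 and 899, no filter 273), exposed bone against lung (limma-voom 5961), the difference of effects (10 and 319) and, by DESeq2, Brx68 against Brx50 (31) and Brx50 against Brx07 in lung (347). Control libraries with the same replicate number in their titles correlated at 0.02 (bone and lung), -0.06 and -0.08 (bone and brain) and -0.04 (lung and brain). Titles and count columns number the brain controls differently. By the column numbers, the values were 0.08 and 0.01 for bone and brain and 0.04 for lung and brain. With 2 libraries in a group the deviations mirror each other, so this check could not decide whether libraries were paired. With the replicate block, 21, 27 and 20 keratins were called among controls. With line and label code as the block, 6 libraries gave 0 keratins between exposed bone and lung, and the 3 pairs correlated at 0.37, -0.02 and 0.0001.

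Depth limited a keratin without counts to 0.192 to 0.699 CPM, and groups of 2 or 3 controls limited every comparison with them.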
